A study of Mus musculus with 6 samples.

Results

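The 32 genes described here mark the neurons and glia of the enteric nervous system, and they were taken by gene symbol from the deposited table of 18477 genes. All 32 were found: 23 mark neurons, 4 mark glia (S100b, Sox10, Gfap and Cdh19), and 5 (Hand2, Gap43, Ncam1, Ednrb and Gfra2) are shared by neurons, glia or other cells of the gut wall. RNA came from colon of male C57BL/6 mice, bought at 6 to 8 weeks of age, with colitis induced by dextran sulphate sodium (DSS). Both groups drank 2% (w/v) DSS on days 8 to 14. The DSS group (3 libraries) received PBS by daily gavage for 14 days, and the DSS+BV group (3 libraries) received *Bacteroides vulgatus* in PBS on the same days. No colon library without DSS was analysed here, and the labels do not say whether each library comes from 1 mouse, so the tests measure the spread between libraries.

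The enteric nervous system is a network of ganglia in the muscle wall and the submucosa of the gut. It forms from neural crest cells that depend on the receptors Ret and Ednrb and on transcription factors such as Phox2a, Hand2 and Sox10. Its neurons drive and relax the muscle: excitatory neurons release acetylcholine and substance P, and inhibitory neurons make nitric oxide and vasoactive intestinal peptide. Enteric glia surround them and carry S100b, Gfap and Sox10. In bulk colon RNA, fewer cells of a type and less RNA per cell cannot be told apart.

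The libraries held 15293276 to 17254343 expected counts each. Values below are CPM (counts scaled by library size, with TMM factors), given for DSS 1, 2 and 3 and then DSS+BV 1, 2 and 3. The 10 colon epithelium genes summed to 10840 to 28000 CPM, so the labelled tissue was marked in every library. One library stood apart for the genes described here: DSS 3 was the highest of the 6 for each of the 30 members that passed the filter on low counts, whereas it was the highest for 29.8% of all 14579 genes tested. The ratio of DSS 3 to DSS 1 had a median of 4.33 over the tested members and ran from 1.21 for Ednrb to 9.48 for Chat. For this reason each log2 fold change of a member is followed by its value without DSS 3.

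**Figure D1:**
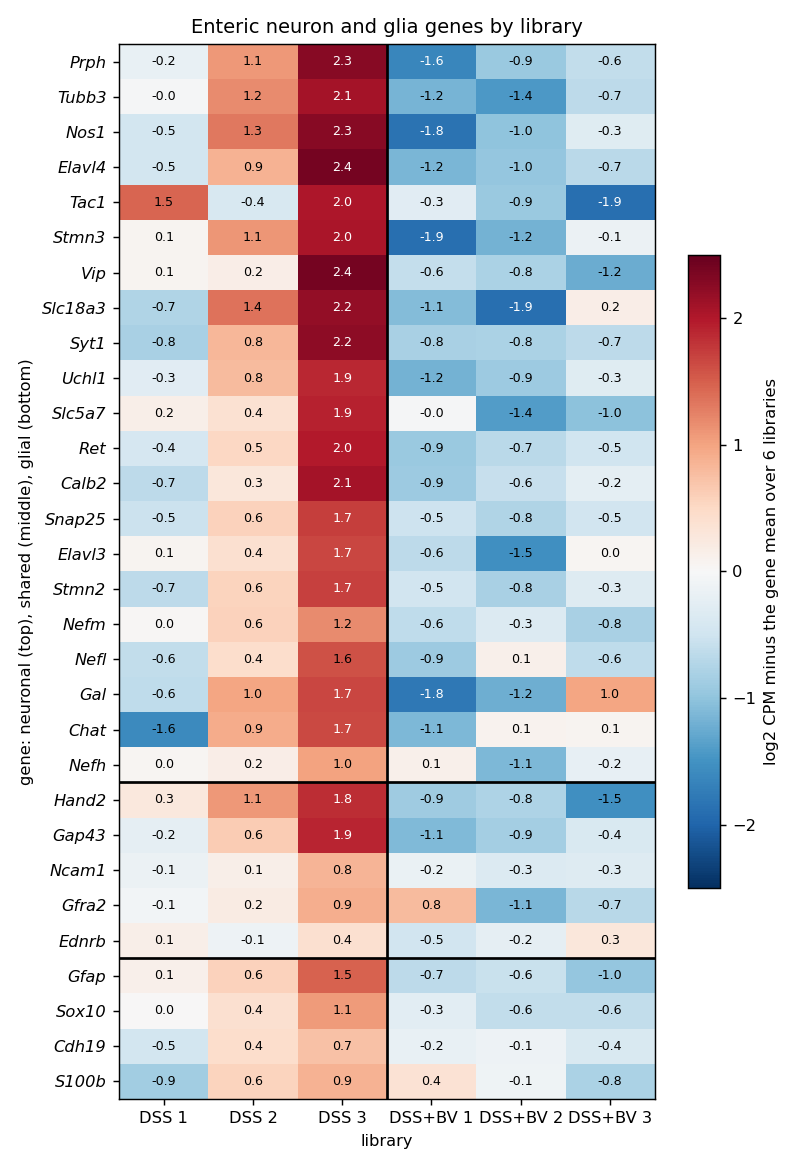
Each cell gives the log2 CPM of 1 gene in 1 library minus that gene's mean over the 6 libraries (red above, blue below the mean), with the 21 neuronal genes at the top, the 5 shared genes in the middle and the 4 glial genes at the bottom. The DSS 3 column is the highest of all 6 in every one of the 30 rows, and DSS 1 lies close to the DSS+BV libraries for many genes.

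Every tested member had a lower fitted level in DSS+BV than in DSS, and the neuronal genes had the most negative median. The log2 fold change (DSS+BV against DSS) was below 0 for 30 of 30 tested members, against 51.5% of all genes tested. It was below -1 for 24 of 30, against 7.12% of all genes, and for 11 of 30 without DSS 3, against 3.81% of all genes. The median was -1.74 for the 21 neuronal members, -0.79 for the 4 glial members and -0.62 for the 5 shared members, beside -0.01 over all tested genes. Without DSS 3 these medians were -0.96, -0.49 and -0.28, beside -0.02 over all genes. The 3 DSS+BV libraries all lay below the 3 DSS libraries for 15 of 30 members, against 11.3% of all genes. No member lay above, against 6.37% of all genes. The members were chosen with earlier results of these data known. DSS 3 was the highest library for each tested member, so these counts are not of separate observations.

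None of these genes passed the threshold of the edgeR quasi-likelihood test, which was an adjusted p under 0.05 with a log2 fold change beyond 1 in size. The adjusted p ran from 0.186 for Hand2 to 0.744 for S100b in edgeR, and 0.0892% of all genes were called lower and 0.0% higher. At an unadjusted edgeR p under 0.05, 20 of 30 members were lower, against 9.12% of all genes, and 0 were higher, against 3.4%. DESeq2, the test used as the alternative, called 10 of the 31 members to which it gave an adjusted p as lower, against 1.73% of all genes. They were Hand2, Elavl4, Tubb3, Prph, Stmn3, Uchl1, Nos1, Vip, Tac1 and Gfap. It called 0 members higher, against 0.279%.

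These counts depended on single libraries. Without DSS 3, 30 of 30 members were still below 0 (53.3% of all genes), but the median log2 fold change over the tested members went from -1.56 to -0.86. The members with an unadjusted edgeR p under 0.05 then numbered 11 (4.7% of all genes), and DESeq2 called Hand2 and Gfap alone (0.772% of all genes). The groups of 15 members did not overlap (13.5% of all genes). Leaving out DSS 3, the highest library for every tested member, could not itself lower this count, which rests on the lowest DSS library. Leaving out DSS+BV 2 also left 11 members at an unadjusted edgeR p under 0.05 (4.09% of all genes), and DESeq2 then called Hand2 alone (0.73% of all genes). Without DSS 1, which lay nearest to the DSS+BV group for many of these genes, 27 of 31 tested members had groups that did not overlap (19.0% of all genes), 26 had an unadjusted edgeR p under 0.05 (10.6% of all genes) and DESeq2 called 18 (3.37% of all genes). Phox2a, which failed the filter in the main analysis, was among the 31, the 27 and the 26. It passed there through 17 counts in DSS 2 and 52 in DSS 3, against 8, 7 and 9 in DSS+BV. Of the 6 fits that each left out 1 library, the one without DSS 2 gave the lowest count of members that did not overlap, 13 (17.5% of all genes). Leaving out a library cannot itself make separated groups overlap, so this fall from 15 came with the scaling computed again in that fit. Tac1 was gained, and Elavl3, Uchl1 and Ncam1 were lost. For these last genes the lowest DSS value was only 1.009 to 1.017 times the highest DSS+BV value in the main analysis.

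**Figure D2:**
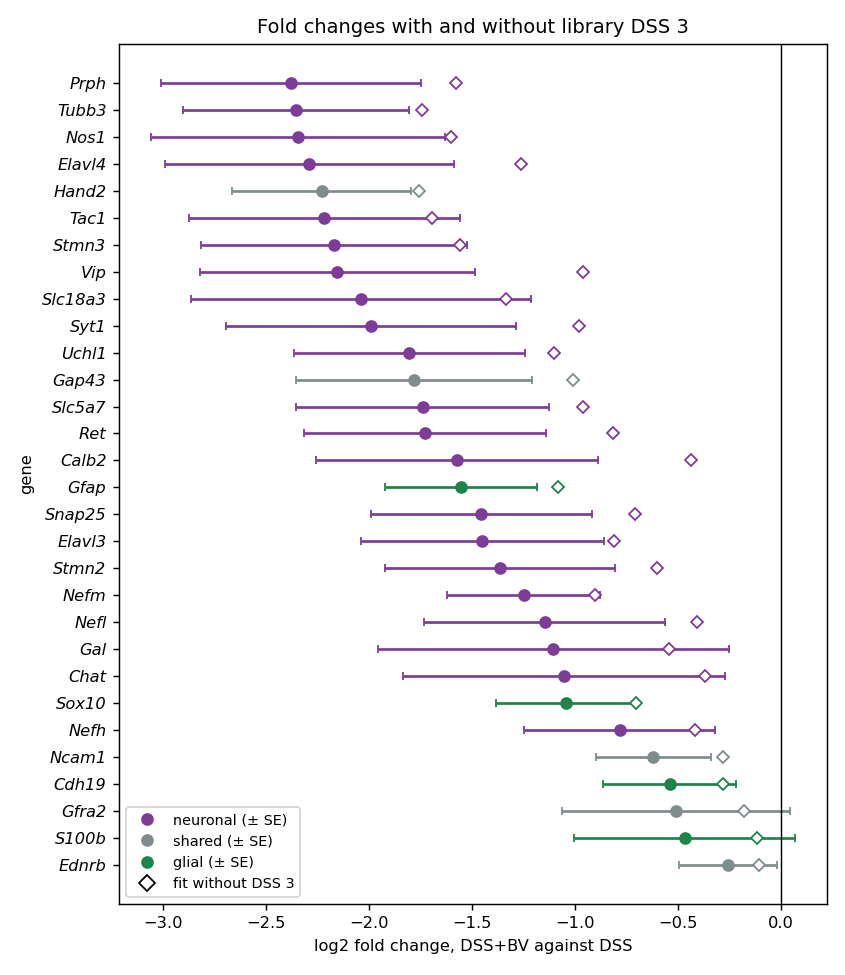
Filled points give the log2 fold change of DSS+BV against DSS for each of the 30 tested genes with its standard error as the bar, and open diamonds give the fit without library DSS 3. All points and diamonds lie below 0, Prph is the lowest at -2.38, and every diamond lies closer to 0 than its filled point.

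For 19 of the 32 members, RefSeq gave a promoter on GRCm38.p6. The 250 bases before the RefSeq start of 4 of them are shown, as examples of the members described below: Prph and Vip for neurons, Hand2 for the shared genes and Gfap for glia. They are Prph at chr15:99054924-99055173 (plus strand), Vip at chr10:5638968-5639217 (plus strand), Hand2 at chr8:57320733-57320982 (plus strand) and Gfap at chr11:102897201-102897450 (minus strand). Each is printed 5′ to 3′ on the strand of its gene. The Gfap window ends at the start of a coding transcript, and a longer noncoding transcript of Gfap starts further upstream in GENCODE vM21, at position 102900912. The Hand2 window is spanned by exons of the antisense gene Hand2os1. Capitals mark 4 short promoter motifs found on either strand: TATAAA (the TATA box), CCAAT (the CCAAT box), GGGCGG (the GC box bound by Sp1) and TGACG (the core of the cAMP response element).
Prph: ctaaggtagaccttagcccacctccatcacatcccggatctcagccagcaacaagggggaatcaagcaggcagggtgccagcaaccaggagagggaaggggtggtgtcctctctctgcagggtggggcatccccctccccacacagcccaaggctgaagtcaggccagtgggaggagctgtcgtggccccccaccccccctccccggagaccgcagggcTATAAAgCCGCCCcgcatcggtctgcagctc
Vip: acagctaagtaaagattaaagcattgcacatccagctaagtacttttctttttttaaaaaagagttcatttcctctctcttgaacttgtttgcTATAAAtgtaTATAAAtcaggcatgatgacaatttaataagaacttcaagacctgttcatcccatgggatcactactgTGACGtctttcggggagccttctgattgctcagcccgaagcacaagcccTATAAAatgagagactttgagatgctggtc
Hand2: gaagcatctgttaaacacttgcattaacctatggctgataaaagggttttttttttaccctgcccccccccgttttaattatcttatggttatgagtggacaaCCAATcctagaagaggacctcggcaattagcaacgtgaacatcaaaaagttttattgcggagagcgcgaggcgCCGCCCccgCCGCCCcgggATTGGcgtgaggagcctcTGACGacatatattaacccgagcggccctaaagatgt
Gfap: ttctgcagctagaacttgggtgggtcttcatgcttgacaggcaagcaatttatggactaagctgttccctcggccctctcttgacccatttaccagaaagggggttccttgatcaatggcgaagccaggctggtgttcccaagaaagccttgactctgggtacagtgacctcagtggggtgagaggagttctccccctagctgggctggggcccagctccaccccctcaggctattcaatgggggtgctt
Vip held TATAAA at 3 places and TGACG at 1. Prph held TATAAA once, with a reverse GC box next to it. Hand2 held the CCAAT box, the GC box and TGACG but no TATAAA, and the Gfap window held none of the 4. Over the 19 members, TGACG stood in 8 and in 19.8% of all 27025 genes with a promoter, and CCAAT in 10 and in 37.5% of all genes. GGGCGG stood in 9 members and in 35.4% of all genes, and TATAAA in 4 members and in 14.3% of all genes. The motifs do not overlap each other in the printed windows.

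Among the regulators and receptors, Hand2 had the lowest p of all members. Hand2, a transcription factor that neural crest cells need to become enteric neurons, read 18.0, 31.8 and 53.8 CPM in DSS and 8.11, 8.79 and 5.18 CPM in DSS+BV. The groups did not overlap, and the lowest DSS library was above the highest DSS+BV library. Its log2 fold change was -2.23 (SE 0.43, edgeR adjusted p = 0.186), and DESeq2 called it (adjusted p = 0.000146). Without DSS 3 the log2 fold change was -1.75 with a DESeq2 adjusted p of 0.0047. The antisense gene Hand2os1 shares 461 bases with Hand2 exons, 19.6% of their length, and whether counting used strand is not given in the sources used here.

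Ret, the receptor for GDNF on enteric neurons and their precursors, read 11.9, 22.7 and 62.8 CPM in DSS and 8.31, 9.88 and 11.2 CPM in DSS+BV. Its groups did not overlap, although DSS 1 lay just above DSS+BV 3. Its log2 fold change was -1.73 (SE 0.59, edgeR adjusted p = 0.349) and -0.82 without DSS 3. Elavl4, an RNA-binding protein of neurons known as HuD, had values of 2.87, 7.21 and 20.7 CPM against 1.78, 2.04 and 2.47 CPM. Its relative Elavl3 (HuC) was scarcer, at 1.74, 2.18 and 5.24 CPM against 1.06, 0.573 and 1.71 CPM. Both were lower in all 3 DSS+BV libraries, Elavl3 by a small margin at DSS 1. The log2 fold change was -2.29 for Elavl4 and -1.45 for Elavl3 (SE 0.70 and 0.59), and -1.26 and -0.81 without DSS 3.

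Ednrb, the endothelin receptor that migrating crest cells use and that glia and other gut cells also carry, differed little. It read 53.0, 43.8 and 64.0 CPM in DSS and 34.8, 41.3 and 58.6 CPM in DSS+BV, with overlapping groups. Its log2 fold change of -0.26 (SE 0.24, edgeR adjusted p = 0.679) was the nearest to 0 of all tested members, and it was -0.11 without DSS 3. Gfra2, the co-receptor for neurturin, also overlapped, with a log2 fold change of -0.51 (SE 0.55) and -0.18 without DSS 3. Phox2a, a transcription factor of autonomic and enteric neurons, failed the filter with 9, 17 and 52 counts in DSS and 8, 7 and 9 counts in DSS+BV, and DSS 3 was again the highest.

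Among the genes of the neuronal skeleton and axon, Prph and Tubb3 had the most negative log2 fold changes of all tested members. Prph encodes peripherin, an intermediate filament of peripheral neurons, and read 9.28, 22.5 and 51.2 CPM in DSS against 3.43, 5.61 and 6.89 CPM in DSS+BV. Tubb3, the neuronal beta-tubulin, read 6.05, 14.05 and 25.9 CPM against 2.77, 2.29 and 3.92 CPM. For both genes the DSS libraries spread widely while the DSS+BV libraries lay close together below them. The log2 fold change was -2.38 for Prph (SE 0.63, edgeR adjusted p = 0.289, DESeq2 adjusted p = 0.0061). For Tubb3 it was -2.35 (SE 0.55, edgeR adjusted p = 0.245, DESeq2 adjusted p = 0.00224). Without DSS 3 they were -1.58 and -1.74, and the DESeq2 adjusted p was then 0.167 and 0.0728.

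Of the stathmins, which regulate microtubules in axons, Stmn3 read 2.58, 5.22 and 10.1 CPM in DSS against 0.66, 1.08 and 2.21 CPM in DSS+BV. Stmn2 read 7.01, 16.2 and 35.8 CPM against 7.85, 6.24 and 8.85 CPM. Only Stmn3 of the pair had groups that did not overlap, since Stmn2 in DSS 1 lay within the DSS+BV range. Uchl1, the ubiquitin hydrolase PGP9.5 used to stain enteric neurons, read 7.78, 16.5 and 34.8 CPM against 4.16, 5.03 and 7.71 CPM. Gap43, a protein of growing axon endings, read 3.17, 5.72 and 13.9 CPM against 1.72, 2.04 and 2.85 CPM. Uchl1 in DSS 1 exceeded DSS+BV 3 by under 0.1 CPM, so that the gap between the groups was narrow. The log2 fold change was -2.17 for Stmn3, -1.36 for Stmn2, -1.80 for Uchl1 and -1.78 for Gap43 (SE 0.65, 0.56, 0.56 and 0.57). In the same order it was -1.56, -0.60, -1.10 and -1.01 without DSS 3. The antisense gene Uchl1os shares 20.7% of the Uchl1 exon bases.

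The neurofilaments differed less than peripherin. Nefm, the medium chain, read 3.05, 4.41 and 6.75 CPM in DSS and 1.91, 2.36 and 1.71 CPM in DSS+BV, without overlap, and its log2 fold change was -1.25 (SE 0.37) and -0.90 without DSS 3. Nefl, the light chain, and Nefh, the heavy chain, overlapped between groups at -1.15 (SE 0.58) and -0.78 (SE 0.46), and at -0.41 and -0.42 without DSS 3. Nefl and Nefm lie on opposite strands and share 1108 exon bases, 32.8% of Nefl and 19.2% of Nefm, so their values are uncertain there. Smaller overlaps with a neighbouring gene, of 2.62% to 5.91% of exon bases, exist for Nos1, Elavl3, Phox2a and Ncam1. Ncam1, an adhesion molecule of neurons and other cells, read 13.95, 16.97 and 27.7 CPM against 13.7, 12.1 and 12.3 CPM. Its groups were separated by the small gap between DSS 1 and DSS+BV 1, and its log2 fold change was -0.62 (SE 0.28) and -0.28 without DSS 3.

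Snap25 and Syt1, which drive fusion of synaptic vesicles, overlapped between groups because DSS 1 was as low as the DSS+BV libraries. Snap25 read 7.72, 16.8 and 37.0 CPM in DSS and 7.78, 6.63 and 8.03 CPM in DSS+BV. Syt1, the calcium sensor of release, read 3.65, 11.3 and 30.3 CPM against 3.63, 3.69 and 4.05 CPM. The DSS+BV libraries of Syt1 differed by a factor of 1.11 from lowest to highest, the smallest such ratio among the tested members, whereas the DSS libraries differed by a factor of 8.29. Over all tested members this ratio had a median of 4.42 within DSS and 1.702 within DSS+BV. Snap25 had a log2 fold change of -1.46 and Syt1 one of -1.99 (SE 0.54 and 0.70), which were -0.71 and -0.98 without DSS 3.

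**Figure D3:**
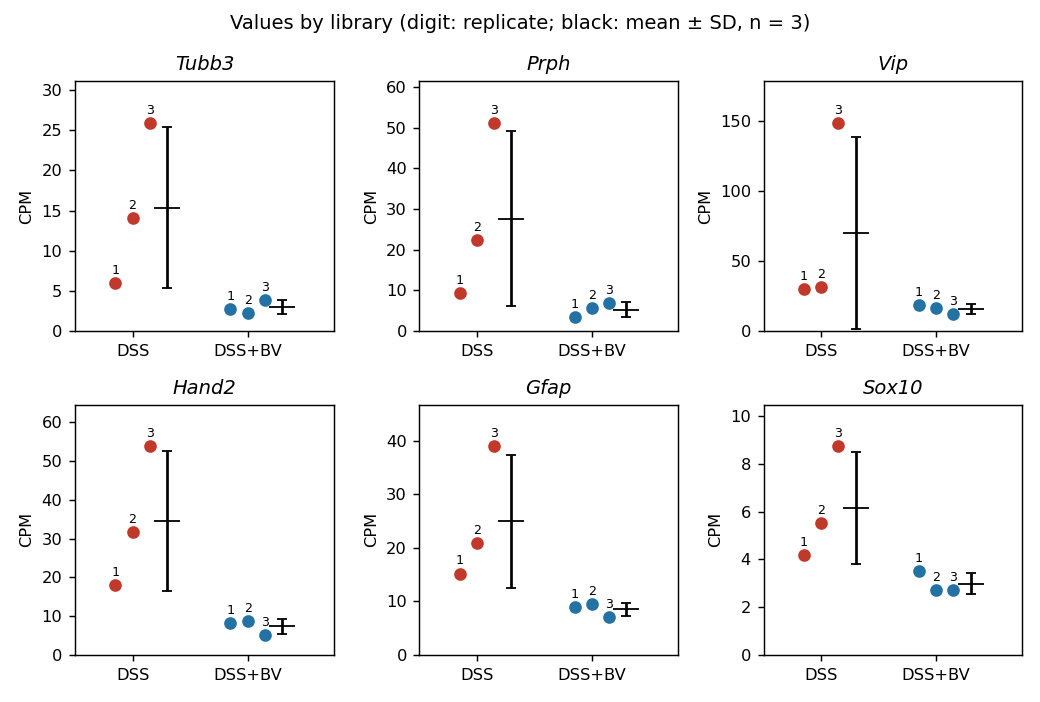
CPM of 3 neuronal genes (Tubb3, Prph and Vip), Hand2 and 2 glial genes (Gfap and Sox10) in each library, with the replicate number beside each point and the mean ± SD of 3 libraries in black. In all 6 panels the DSS+BV points lie close together below every DSS point, and DSS 3 is the highest point. The 6 genes are among the 15 of 30 tested members whose groups did not overlap. The glial genes S100b and Cdh19, not shown, overlapped.

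Of the 3 inhibitory and 4 excitatory transmitter genes, edgeR called 0 (0.0892% of all genes lower, 0.0% higher). DESeq2 called Nos1, Vip and Tac1 lower (1.73% of all genes). Only the groups of Vip and Slc5a7 did not overlap, both lower in DSS+BV (11.3% of all genes). Vip, the gene of vasoactive intestinal peptide, read 29.8, 31.6 and 148.7 CPM in DSS and 18.7, 16.4 and 12.1 CPM in DSS+BV, without overlap. Its log2 fold change was -2.15 (SE 0.67, edgeR adjusted p = 0.329) and -0.96 without DSS 3. Nos1, the neuronal nitric oxide synthase, read 8.80, 30.2 and 58.5 CPM against 3.36, 6.05 and 9.80 CPM. The Nos1 groups overlapped through DSS 1 and DSS+BV 3. Its log2 fold change was -2.34 (SE 0.71, edgeR adjusted p = 0.329, DESeq2 adjusted p = 0.0214) and -1.60 without DSS 3. Gal, the neuropeptide galanin, overlapped widely, with 1.92 to 9.38 CPM in DSS and 0.858 to 5.82 CPM in DSS+BV, and its log2 fold change was -1.11 (SE 0.85) and -0.55 without DSS 3.

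On the excitatory side, Tac1 encodes the precursor of substance P and read 95.1, 26.2 and 140.0 CPM in DSS and 28.5, 18.3 and 9.42 CPM in DSS+BV. It was the one member with DSS 1 far above DSS 2, and DSS 2 lay below DSS+BV 1. Its log2 fold change was -2.22 (SE 0.66, edgeR adjusted p = 0.323, DESeq2 adjusted p = 0.0175) and -1.70 without DSS 3. Tac1 is also made by some enteroendocrine cells. The 11 enteroendocrine genes summed to 649, 337 and 924 CPM in DSS and 570, 603 and 787 CPM in DSS+BV. The sum was lowest in DSS 2, as Tac1 was within DSS, and its part in the Tac1 result was not tested.

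The genes of acetylcholine handling were scarce. Slc18a3, which loads acetylcholine into vesicles, read 0.838, 3.61 and 6.41 CPM in DSS and 0.66, 0.382 and 1.58 CPM in DSS+BV. Slc5a7, which takes up choline, read 2.99, 3.48 and 10.2 CPM against 2.64, 1.02 and 1.33 CPM. Slc5a7 did not overlap between groups, and Slc18a3 overlapped through DSS 1 and DSS+BV 3. Slc18a3 had a log2 fold change of -2.04 and Slc5a7 one of -1.74 (SE 0.83 and 0.61), which were -1.33 and -0.96 without DSS 3. Chat, the enzyme that makes acetylcholine, had 94 counts over all 6 libraries, overlapping groups and a log2 fold change of -1.06 (SE 0.78), which was -0.37 without DSS 3. Slc18a3 lies within the Chat gene on the same strand, with no shared exon bases in the annotation used. The mean centred log2 CPM of the 3 inhibitory genes minus that of the 4 excitatory genes was -0.23, 0.31 and 0.24 in DSS and -0.79, -0.01 and 0.48 in DSS+BV. These differences overlapped between the groups.

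Of the calcium-binding proteins that mark subsets of enteric neurons, Calb2 (calretinin) read 5.27, 10.2 and 35.5 CPM in DSS and 4.42, 5.61 and 7.08 CPM in DSS+BV. Its groups overlapped, and the log2 fold change moved from -1.57 (SE 0.68) to -0.44 without DSS 3. Calb1 (calbindin) was at the limit of detection, with 0, 5 and 4 counts in DSS and 0, 0 and 1 counts in DSS+BV, and was not tested.

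Of the 4 glial genes, the groups of 2 did not overlap, lower in DSS+BV (11.3% of all genes), and those of the rest did. Gfap, the intermediate filament of glia, read 15.2, 20.8 and 39.0 CPM in DSS and 8.90, 9.49 and 7.14 CPM in DSS+BV. Sox10, the transcription factor that defines enteric glia and crest precursors, read 4.19, 5.53 and 8.73 CPM against 3.50, 2.74 and 2.72 CPM. Both lay below DSS in all 3 DSS+BV libraries. The log2 fold change was -1.55 for Gfap (SE 0.37, edgeR adjusted p = 0.246, DESeq2 adjusted p = 0.00874) and -1.04 for Sox10 (SE 0.34, edgeR adjusted p = 0.343). Without DSS 3 they were -1.08 and -0.70, and the DESeq2 adjusted p of Gfap was then 0.0358.

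S100b, a calcium-binding protein of glia, read 0.898, 2.42 and 3.03 CPM in DSS and 2.11, 1.53 and 0.948 CPM in DSS+BV. Cdh19, a cadherin of the Schwann cell and enteric glia lineage, read 7.01, 13.1 and 16.0 CPM against 8.51, 8.79 and 7.46 CPM. For both genes DSS 1 was the lowest of the 6 libraries, and the groups overlapped. S100b had a log2 fold change of -0.47 and Cdh19 one of -0.54 (SE 0.54 and 0.32), which were -0.12 and -0.28 without DSS 3.

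Neuronal genes were then set against glial genes within each library. The neuronal score, the mean centred log2 CPM of the 21 tested neuronal members, was -0.28, 0.64 and 1.85 in DSS and -0.89, -0.87 and -0.45 in DSS+BV. The glial score, formed in the same way from the 4 glial members, was -0.29, 0.48 and 1.01 in DSS and -0.19, -0.35 and -0.67 in DSS+BV. The neuronal score did not overlap between groups and the glial score did. The group difference was -1.47 for the neuronal score and -0.80 for the glial score, and without DSS 3 it was -0.92 and -0.50.

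The neuronal score minus the glial score was 0.01, 0.16 and 0.84 in DSS (0.34 ± 0.45, SD, n = 3) and -0.70, -0.52 and 0.21 in DSS+BV (-0.34 ± 0.49, SD, n = 3). DSS+BV 3 lay above DSS 1 and DSS 2, so the groups overlapped. The difference between the group means was -0.67, and -0.42 without DSS 3. The summed CPM of the 23 neuronal members divided by that of the 4 glial members was 7.84, 6.26 and 11.3 in DSS and 4.68, 4.53 and 6.12 in DSS+BV. This ratio did not overlap between groups, with a narrow gap between DSS 2 and DSS+BV 3, but it is weighted towards Vip and Tac1. By the score, the difference between neuronal and glial members was within the spread between libraries.

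**Figure D4:**
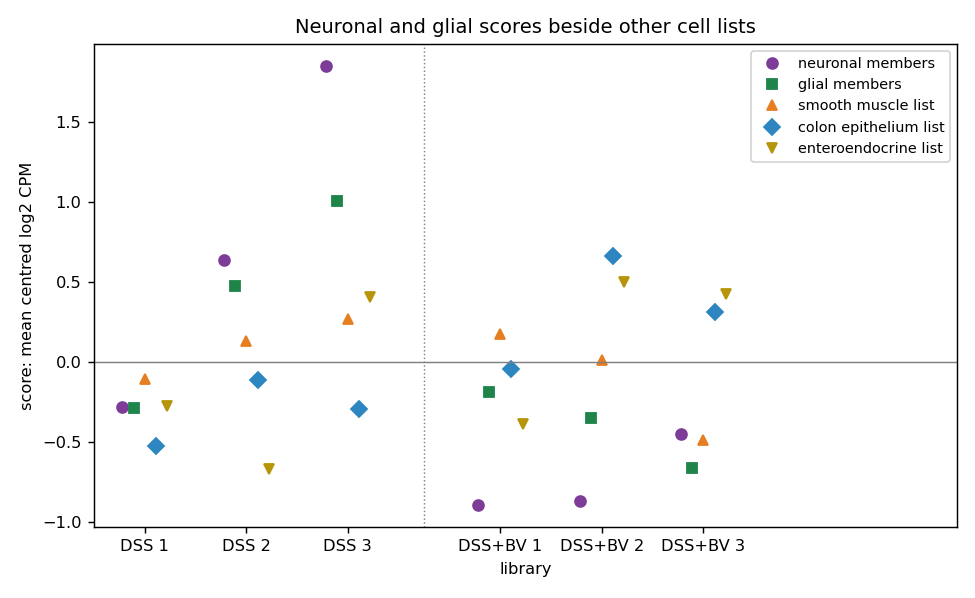
Scores (mean centred log2 CPM over the genes of a list) for the neuronal and glial members and for lists of smooth muscle, colon epithelium and enteroendocrine genes in each library. The neuronal score runs from -0.89 in DSS+BV 1 to 1.85 in DSS 3, wider than the smooth muscle score, which runs from -0.49 to 0.27.

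Other genes of the same cell kinds were read in the same fit. Of 40 other neuronal genes 33 were tested, and 29 of these lay below 0 in log2 fold change (median -1.10). None passed the edgeR threshold, 15 had an unadjusted edgeR p under 0.05 and a lower value (9.12% of all genes), and 8 had all DSS+BV libraries below DSS (11.3% of all genes). The DESeq2 fit called 3 of them lower (1.73% of all genes). The median moved to -0.49 without DSS 3. Htr3a, a serotonin receptor channel of enteric neurons, read 5.63, 11.2 and 34.2 CPM in DSS and 1.52, 2.99 and 2.65 CPM in DSS+BV, with a log2 fold change of -2.83 (SE 0.70, edgeR adjusted p = 0.279). L1cam, an adhesion molecule of neurons and the most abundant of these genes, had a log2 fold change of 0.71 (SE 0.41) with overlapping groups.

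Of 17 other glial genes 13 were tested, 10 of them below 0, with a median of -0.70. Of these, 7 had an unadjusted edgeR p under 0.05 with a lower value (9.12% of all genes), 7 had all DSS+BV libraries below DSS (11.3% of all genes), and 0 passed the edgeR threshold while DESeq2 called 2 (1.73% of all genes). Lgi4, a secreted protein of the glial and Schwann cell lineage, read 17.5, 21.3 and 29.1 CPM in DSS and 11.3, 9.49 and 9.74 CPM in DSS+BV. Gpm6b, a membrane glycoprotein of neural cells, read 45.9, 42.6 and 76.2 CPM against 28.0, 19.4 and 18.7 CPM. Both had groups that did not overlap, and the log2 fold change was -1.15 for Lgi4 and -1.32 for Gpm6b (SE 0.23 and 0.28). The score of the other glial genes did not overlap between groups, whereas that of the other neuronal genes did. The median without DSS 3 was -0.61, lower than the -0.49 of the other neuronal genes. The score of the other neuronal genes minus that of the other glial genes differed by -0.22 between the groups, which overlapped.

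Other cells of the gut wall were measured beside these genes. Smooth muscle (12 genes) had a median of -0.14 on the log2 fold change scale and 1 gene without overlap, lower in DSS+BV (11.3% of all genes). These genes summed to 4119, 4630 and 5227 CPM in DSS and 4793, 4327 and 3100 CPM in DSS+BV. Relative to the smooth muscle score, the neuronal score differed by -1.27 and the glial score by -0.60, and by -0.80 and -0.38 without DSS 3, with overlapping groups for both. The part of muscle content was not tested. The 5 genes of interstitial cells of Cajal had a median of 0.10 and the 11 enteroendocrine genes one of 0.28. Neither list had a gene whose groups did not overlap (11.3% of all genes lower, 6.37% higher). Snap25 and Uchl1 are made by enteroendocrine cells as well, and the part of those cells in their values was not tested.

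Of the stromal genes, edgeR called 0 in either list below (0.0892% of all genes lower, 0.0% higher). DESeq2 called 2 of 8 fibroblast genes and 0 of 8 endothelial genes lower (1.73% of all genes). In each list 3 of 8 had groups that did not overlap, lower in DSS+BV (11.3% of all genes). Over the 8 fibroblast genes the median was -0.82 on the same scale, all 8 were below 0, and they summed to 2034 to 2425 CPM in DSS and 978 to 1412 CPM in DSS+BV. Over the 8 endothelial genes it was -0.65, again with all 8 below 0, and they summed to 333 to 437 CPM in DSS and 222 to 301 CPM in DSS+BV. The 10 epithelial genes were all above 0 (median 0.40) and summed to 10840 to 13210 CPM in DSS and 16220 to 28000 CPM in DSS+BV. The sums lean on Car1 in DSS+BV 2 and 3. Car1 read 825, 1041 and 939 CPM in DSS and 924, 10450 and 8702 CPM in DSS+BV, with overlapping groups. The fibroblast, endothelial and epithelial scores did not overlap between groups, and the part of these cells in the neuronal and glial results was not tested. The 8 lymphoid genes had scores of 0.87, -1.17 and 1.85 in DSS and 1.53, -1.72 and -1.36 in DSS+BV, with overlapping groups. They were high in DSS 1, DSS 3 and DSS+BV 1. DSS 3 was the highest library for both the lymphoid and the neuronal score. The neuronal score was -0.89 in DSS+BV 1 and -0.87 in DSS+BV 2. The part of lymphoid cells was not tested either.

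Per kilobase of exon, Tac1 had the highest mean level of the members in both groups, at 70.8 CPM per kb in DSS and 15.2 in DSS+BV. Vip followed in DSS at 45.8 CPM per kb, and then Uchl1 at 16.7, Prph at 14.8, Hand2 at 14.7 and Ednrb at 12.6. In DSS+BV, Ednrb at 10.5 CPM per kb stood beside Vip at 10.3, ahead of Uchl1 at 4.79. Total counts behind a tested member ran from 94 for Chat to 5282 for Tac1 over all libraries. Chat, S100b and Nefh rest on few reads, with 94, 177 and 149 counts, and their groups overlapped. Elavl3 and Slc18a3 followed with 206 and 223 counts. The groups of Elavl3 did not overlap, but its lowest DSS value was only 1.017 times its highest DSS+BV value.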

How the data were processed

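The libraries were made from total colon RNA with a SMARTER mRNA kit and sequenced on a DNBSEQ-T7 instrument. Per the labels, HISAT2 2.1.0, Bowtie2 2.2.5 and RSEM 1.2.8 were used on GRCm38.p6. The authors deposited expected counts per gene from RSEM, not scaled between libraries. A gene's count was rounded where it was not whole (1573 genes). Within each group no library duplicated another, and pairs across the groups were not checked for this. Whether counting used strand is not given in the sources used here.

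Genes were tested with edgeR 4.0.16 (TMM, filterByExpr with a minimum count of 10 and total of 15, quasi-likelihood F test, Benjamini-Hochberg over 14579 genes; the script was tested on simulated data). A gene was called at an adjusted p under 0.05 and a log2 fold change beyond 1 in size. DESeq2 1.42.0 was the alternative test, and other scalings, filters, a robust fit, a replicate block and leaving out each library were tried. A score is the mean log2 CPM (prior count 2) over a list, each gene centred on its mean. Exon lengths and overlaps came from GENCODE vM21. The members and lists were chosen with earlier results of these data known. Values per library are given for members with an unadjusted edgeR p under 0.05 or groups that do not overlap, for glial members and for the most abundant member of each role, and other lists are named by their 2 lowest p and most abundant gene at most. Promoter motifs and the promoters shown were chosen after their matches or values were seen.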

Additional observations from a re-analysis of the deposited data

How the results depend on the processing

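Over all genes, edgeR called 13 lower and 0 higher, whereas DESeq2 called 280 lower and 45 higher, and DESeq2 called 10 members lower where edgeR called 0. With each library left out in turn, the edgeR counts over all genes ran from 0 to 3 lower and from 0 to 4 higher, and members called stayed at 0. Members with an unadjusted edgeR p under 0.05 ran from 11 (without DSS 3, and without DSS+BV 2) to 26 (without DSS 1), and members whose groups did not overlap from 13 to 27. That last count was 15 in the main analysis and 12 under either other filter on low counts. Both ranges were added after seeing the data, and the 26 and the 27 include Phox2a, which failed the filter in the main analysis. The median log2 fold change of the other neuronal genes ran from -1.45 without DSS 1 to -0.49 without DSS 3. Across the groups, libraries of the same replicate number had deviations correlating at 0.27, 0.25 and -0.30, and those of different number at -0.57 to 0.48. With 3 libraries per group, these values cannot decide whether the numbers pair the libraries. With the replicate block edgeR called 0 genes lower, and 17 members had an unadjusted p under 0.05 (7.22% of all genes). No log2 fold change of a member changed sign under any alternative. Of the values under the alternatives, 379 stayed on the same side of the threshold and 10 passed it, all 10 in DESeq2. Other scalings of edgeR moved the median of all genes by under 0.1 on the log2 scale. Members with a log2 fold change below -1 numbered 24, and 11 without DSS 3. Whether depth limits the genes with few counts, such as Chat, was not tested.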
